A study of Homo sapiens with 32 samples.

Results

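MYC and 40 genes of ribosome biogenesis were followed through 32 libraries of HEK293T and U2OS cells. The 41 genes are a list of symbols set by their known roles. The rule uses no measured value, but the list was drawn up with earlier results of these data known. Each symbol was matched to 1 Ensembl identifier among the 60107 genes of the count table (35036 of them with at least 1 count). All 41 passed the filter on low counts in every comparison. By role they comprise MYC itself, 4 genes of RNA polymerase I transcription, 5 nucleolar scaffold proteins and cofactors of rRNA synthesis, 7 proteins of the small nucleolar ribonucleoproteins (snoRNPs), 11 factors of small subunit assembly and 13 of large subunit assembly.

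Transcripts were measured with QuantSeq, which reads the 3′ end of polyadenylated RNA and tags each molecule with a unique molecular identifier (UMI), in HEK293T, a line derived from human embryonic kidney, and U2OS, an osteosarcoma line. Cells were treated with camptothecin (CPT), a poison of DNA topoisomerase I, or with the solvent DMSO, or lacked activity of the checkpoint kinase ATM. Libraries 26 to 29 were U2OS cells after 24 h of CPT at 400 nM and 48 h of recovery, and libraries 30 to 33 were their DMSO controls. Libraries 22 to 25 were HEK293T DMSO, and libraries 18 to 21 were labelled HEK293T ATM KO. The study instead describes RNA sequencing of HEK293T cells treated with an ATM inhibitor at 9 µM. Libraries 18 to 21 are therefore called here by their label. For inhibitor and DMSO alike, the study's schedule was 24 h of treatment and 48 h of recovery. Libraries 2, 4, 6 and 8 were labelled HEK293T CPT, and libraries 3, 5, 7 and 17 HEK293T DMSO. Libraries 10, 12, 14 and 16 were labelled U2OS ATM KO, and libraries 1, 11, 13 and 15 U2OS wild type. The knockout lines of the study were grown from picked clones, so a difference between clones and an effect of the knockout cannot be told apart in a comparison of them.

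The cell line in the label was contradicted by the expression profile in 14 of the 32 libraries. Libraries 10 to 17 all had the profile of the HEK293T DMSO libraries and libraries 1 to 8 all had that of U2OS DMSO. The HEK293T markers LIN28B, NEFM and INA separated the lines, with NEFM at 63.7 normalised CPM or more in libraries 10 to 25 and at 1.70 or less in the others, whereas PAX2 and NEFL did not. The summed level of 7 U2OS markers was at least 2740 normalised CPM in libraries 1 to 8 and 26 to 33 and at most 231 in the rest. Libraries 1 to 8 and 10 to 17 are therefore named by number, their control or treated arm is the one in the label (a knockout label counts as treated), and no condition is read from them. ATM, the gene targeted in the study, was called in none of the 4 comparisons of a treated or knockout arm with its controls (log2 fold changes from -0.31 to 0.22). A 3′ tag outside the edited part does not check a knockout, and an inhibitor need not lower the transcript. Each library held between 1232674 and 6362433 counts assigned to genes, at which 3 counts equal 2.43 to 0.472 CPM. Mitochondrially encoded transcripts took 30.5 to 32.3% of the counts in U2OS CPT against 20.6 to 26.8% in U2OS DMSO, and 13.7 to 18.8% in libraries 10, 12, 14 and 16 against 9.7 to 11.1% in their controls. Reads in no annotated gene were 15.8 to 18.5% against 9.39 to 11% in the latter set. The part of either share in the results was not tested beyond leaving the mitochondrial genes out.

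MYC is a transcription factor that, paired with MAX, binds E-box sequences and raises transcription of genes for growth, among them those of RNA polymerase I and of the factors that build ribosomes. Ribosome biogenesis starts in the nucleolus with synthesis of the precursor rRNA, which snoRNPs modify and a large number of assembly factors cut, fold and bind to ribosomal proteins, separately for the small and the large subunit. The DNA damage checkpoint and the supply of ribosomal components are linked through the nucleolus and p53, and topoisomerase I acts in transcription of the rRNA genes as well as of others.

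The E-box CACGTG, which reads the same on both strands, was searched in the windows from 250 bases before to 50 bases after the start of each gene (RefSeq, GRCh38.p14). Windows were at hand for 32 of the 41 genes and were missing for MYC, NOP58, NOLC1, TCOF1, RRP12, RRP1B, BOP1, RRS1 and DDX18. The motif lay in the windows of 17 of the 32 genes (53.1%), against 8.77% of all 27305 genes with a window and 10.9% of the protein-coding ones. Of the 18 sites, EBNA1BP2 having a pair, 16 began within 50 bases of the start. By role, the motif was found for 7 small subunit factors, 5 large subunit factors, DDX21, GNL3 and LYAR among the scaffold proteins and cofactors, and FBL and GAR1 among the snoRNP proteins. It was in no window of POLR1A, POLR1B, UBTF, NCL, NPM1, NOP56, DKC1, NHP2, NOB1, UTP15, DDX10, NOP16, WDR12, PPAN or NIP7. The sites below belong to the genes with the motif whose response differed between U2OS CPT and libraries 10 to 17, as given further on, and to FBL, which fell in both. The E-box is in capitals with up to 12 bases on either side, 5′ to 3′ on the gene's strand.
UTP20 (chr12:101280083-101280112, plus strand, first E-box base at -10 from the start): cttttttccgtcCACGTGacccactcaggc
WDR43 (chr2:28894658-28894687, plus strand, at 4): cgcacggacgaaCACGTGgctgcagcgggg
RRP9 (chr3:51941892-51941921, minus strand, at -5): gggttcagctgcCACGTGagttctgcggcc
UTP4 (chr16:69132621-69132650, plus strand, at -16): agagcgcgcgcgCACGTGgggccggggcgg
DDX21 (chr10:68956604-68956633, plus strand, at -31): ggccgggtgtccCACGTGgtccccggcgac
GNL3 (chr3:52686026-52686055, plus strand, at 7): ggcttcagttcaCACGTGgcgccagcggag
GAR1 (chr4:109815781-109815810, plus strand, at 32): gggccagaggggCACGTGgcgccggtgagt
EBNA1BP2 (chr1:43172241-43172260, minus strand, at 43): gcgattcggtggCACGTGga
FBL (chr19:39846356-39846385, minus strand, at 7): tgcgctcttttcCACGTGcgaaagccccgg
The genes with and without the motif in the window overlapped in their fold changes in each comparison. In U2OS CPT the median log2 fold change was 0.25 for the 17 genes with it and 0.04 for the 15 without, in libraries 10 to 17 it was -0.38 and -0.31, and in libraries 1 to 8 it was 0.28 and -0.10. In the difference between U2OS CPT and libraries 10 to 17, by which the sites above were chosen, 8 of the 17 and 7 of the 15 were called higher. The median differences there were 0.55 with the motif and 0.41 without. The 9 genes without a window are in neither group, and the part of the motif in these responses was not tested.

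MYC (ENSG00000136997) rose in U2OS cells after CPT and was far lower in the treated-labelled libraries of the set 10 to 17. Levels are given as normalised CPM, counts relative to library size (CPM), scaled by the TMM factors of all 32 libraries, which are comparable between libraries. MYC stood at 35.1, 33.8, 35.4 and 29.2 in the U2OS CPT libraries and at 12.6, 13.4, 17.6 and 10.2 in U2OS DMSO. The groups did not overlap, and the log2 fold change was 1.32 (SE 0.17, n = 4 and 4, 2.5-fold, edgeR quasi-likelihood adjusted p = 1.86e-07). In libraries 10, 12, 14 and 16 MYC was at 9.84, 11.95, 14.9 and 4.89, against 103, 47.7, 87.0 and 149 in libraries 11, 13, 15 and 17. All 4 treated-labelled libraries were below all 4 controls, although the controls themselves spread widely, and the log2 fold change was -3.27 (SE 0.29, edgeR adjusted p = 1.49e-08). In libraries 2, 4, 6 and 8 MYC was at 22.9, 17.8, 17.1 and 10.3 against 28.97, 22.8, 27.96 and 14.9 in libraries 1, 3, 5 and 7, an overlap, with a log2 fold change of -0.55 (SE 0.22, edgeR adjusted p = 0.0985). It passed the threshold there without library 2 (-0.67, edgeR adjusted p = 0.0417) or without library 7 (-0.77, edgeR adjusted p = 0.017). In the libraries labelled HEK293T ATM KO it was at 54.4, 58.2, 71.9 and 93.2 against 108, 83.3, 109 and 77.05 in HEK293T DMSO, also an overlap, with a log2 fold change of -0.43 (SE 0.14, edgeR adjusted p = 0.763). Without library 21 the latter passed the threshold (log2 fold change -0.60, edgeR adjusted p = 0.0122). In bulk RNA, fewer cells with a transcript and less of it per cell cannot be told apart, for MYC as for the genes that follow.

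The paralogs of MYC moved otherwise in U2OS cells after CPT. MYCN, which is best known from neural tissue and neuroblastoma, was at 2.36, 0.727, 1.18 and 0.704 after CPT against 16.7, 12.1, 12.99 and 6.29 in DMSO and fell by 3.19 on the log2 scale (SE 0.38, edgeR adjusted p = 4.69e-08). The CPT levels were near that of 3 counts, so the size of this fold is uncertain. MYCL was at 4.05, 2.55, 1.97 and 3.52 against 20.5, 17.9, 15.2 and 15.7 and fell by 2.48 (SE 0.25, edgeR adjusted p = 1.52e-09). Neither group pair overlapped, while MYC rose in the same libraries. MXD3, a MAX partner that counters MYC, fell by 1.99, and MXD1 of the same family rose by 1.45. In libraries 10 to 17 MYCN was instead higher in the treated-labelled arm by 1.08 (SE 0.36, edgeR adjusted p = 0.022), at 2.3 to 4.2 against 0.8 to 1.9 normalised CPM, near the level of 3 counts. MXD1 was higher by 1.14. Of the 17 genes of the MYC network, 4 rose (23.5%) and 5 fell (29.4%) after CPT in U2OS (median log2 fold change 0.06), where 16.6% of all genes rose and 15.3% fell. In libraries 10 to 17, 3 were higher (17.6%) and 5 lower (29.4%, median -0.20), where 17.6% of all genes were higher and 17.3% lower.

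**Figure D1:**
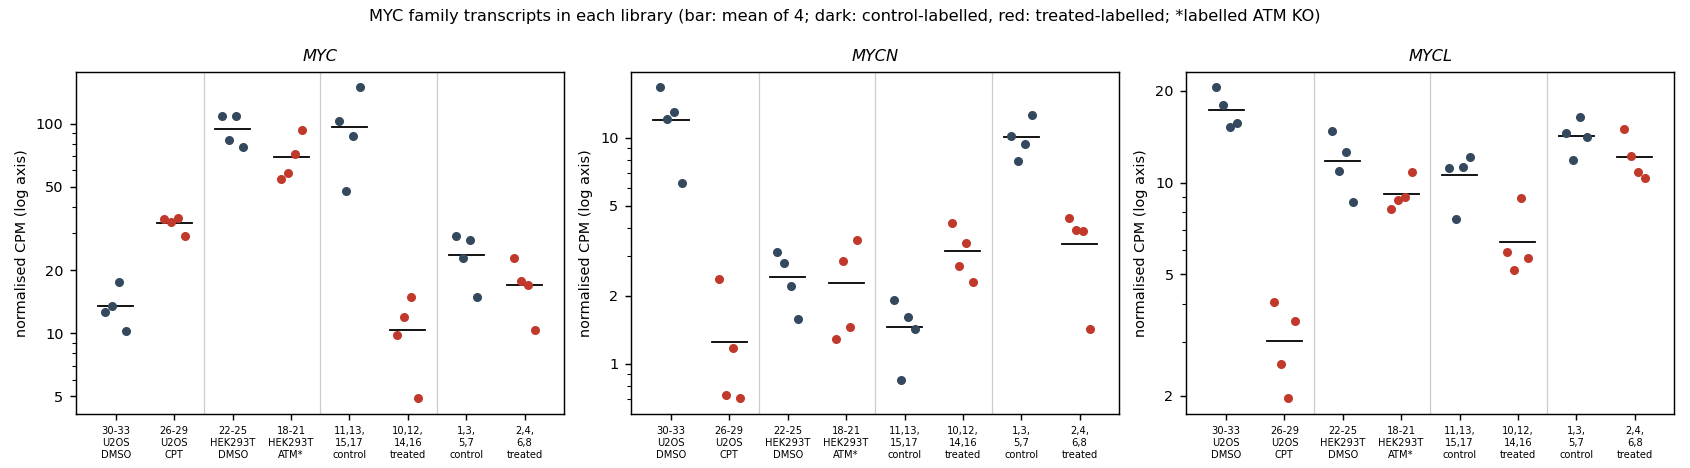
Normalised CPM (log axes) of MYC, MYCN and MYCL in each of the 32 libraries, in 8 groups of 4 (points, libraries; bars, means; dark, control-labelled; red, treated-labelled). After CPT in U2OS cells MYC was above DMSO while MYCN and MYCL were below, and MYC in libraries 10, 12, 14 and 16 was below their controls.

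After CPT in U2OS cells, 14 of the 41 genes rose (34.1%) and 2 fell (4.88%), where 16.6% of all 19080 genes tested rose and 15.3% fell at an adjusted p under 0.05. The median log2 fold change was 0.15 over the 41 and 0.01 over all genes. Of the same 41, 2 rose past a log2 fold change of 1 (7.97% of all genes did), MYC and RRP12. The 14 were MYC, POLR1A, POLR1B, GNL3, DDX21, UTP15, UTP20, WDR43, RRP12, NAT10, NOP2, NOP16, RRS1 and EBNA1BP2. FBL and UBTF fell. For 7 of the 14 and for both that fell, the call held under each of the 16 other settings of this comparison, with the largest adjusted p at 0.049 for UTP15. Of 12440 genes tested with the stricter filter filterByExpr, 2672 rose and 2670 fell. The summed level of the 7 U2OS markers was 5400 to 5920 normalised CPM after CPT and 2740 to 3330 in DMSO. The part of that difference in these counts was not tested.

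RRP12 (ENSG00000052749), which takes part in the maturation and export of both subunits, had the largest rise. It was at 15.5, 17.1, 20.8 and 19.02 normalised CPM after CPT against 6.15, 5.86, 5.26 and 5.77 in DMSO, with no overlap (log2 fold change 1.65, SE 0.20, 3.14-fold, edgeR adjusted p = 9.59e-08). Among the other small subunit factors, UTP15, UTP20 and WDR43, which belong to the processome that forms on the nascent precursor, rose by 0.60, 0.47 and 0.58. NAT10, which acetylates cytidines of the small subunit rRNA, rose by 0.37 (SE 0.13, edgeR adjusted p = 0.0234) and lost its call under 5 settings. No small subunit factor fell, and the 6 not called ranged from -0.13 (NOB1) to 0.36 (RRP9).

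In the large subunit group 4 of 13 rose and none was called lower. RRS1, needed to bring the smallest rRNA into the large subunit precursor, was at 41.2, 45.1, 40.9 and 35.6 after CPT against 26.7, 18.9, 24.8 and 20.4, with no overlap (0.85, SE 0.15, edgeR adjusted p = 2.76e-05). NOP16 was at 39.1, 36.0, 36.2 and 38.7 against 24.0, 25.2, 21.3 and 22.5 (0.70, SE 0.14, edgeR adjusted p = 0.000162), again with every CPT library above every DMSO library. EBNA1BP2 and the rRNA methyltransferase NOP2 rose by 0.40 and 0.50, and each lost its call under 3 settings. BOP1, which with PES1 and WDR12 forms a complex needed to cut the large subunit precursor, differed by 0.03 (95% interval -0.29 to 0.36).

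The transcription and snoRNP groups held the genes that fell. FBL (ENSG00000105202), the methyltransferase of the box C/D snoRNPs, was at 61.7, 65.8, 82.9 and 81.4 after CPT against 100.2, 120, 109.8 and 146 in DMSO. The groups did not overlap, and FBL fell by 0.70 (SE 0.13, edgeR adjusted p = 8.43e-05). UBTF, which opens the rRNA genes for RNA polymerase I, was at 63.4, 57.8, 72.7 and 60.6 against 99.3, 103, 104 and 97.2, also apart, and fell by 0.66 (SE 0.12, edgeR adjusted p = 4.24e-05). The largest polymerase I subunits, POLR1A and POLR1B, rose by 0.47 and 0.43, so that the 4 genes of polymerase I transcription did not move together. The call of POLR1A was lost under 5 settings, DESeq2 among them, and that of POLR1B under 1. TCOF1, whose product treacle works beside UBTF, was not called (-0.04, 95% interval -0.33 to 0.25). The other 6 snoRNP genes were not called, DKC1, the pseudouridine synthase of the box H/ACA snoRNPs, among them (-0.18, 95% interval -0.39 to 0.03).

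Of the scaffold proteins and cofactors, DDX21, an RNA helicase that acts in both polymerase I transcription and rRNA processing, was at 686, 700.0, 706 and 654 after CPT against 453, 403, 479 and 485, with no overlap (0.60, SE 0.11, edgeR adjusted p = 3.345e-05). GNL3, or nucleostemin, rose by 0.50 (SE 0.15, edgeR adjusted p = 0.00832), with library 28 at 32.6 inside the DMSO range of 25.8 to 33.4. Nucleolin (NCL) and nucleophosmin (NPM1) were not called, at -0.28 (95% interval -0.51 to -0.06) and -0.23 (-0.44 to -0.03). NPM1 has many processed pseudogenes, and how reads that match several places were counted is not given in the sources used here. Scaled by library size alone, which moved the median of all genes to -0.16, 7 of the 41 rose and 6 fell, the 6 being FBL, UBTF, NCL, NPM1, NOP58 and DKC1. Of all 19080 genes, 2281 rose and 4254 fell at that scaling. Without library 30 or without library 31, NCL and NOP58 were called lower as well, 4 in place of 2, and without the mitochondrially encoded genes NCL was (edgeR adjusted p = 0.0423).

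**Figure D2:**
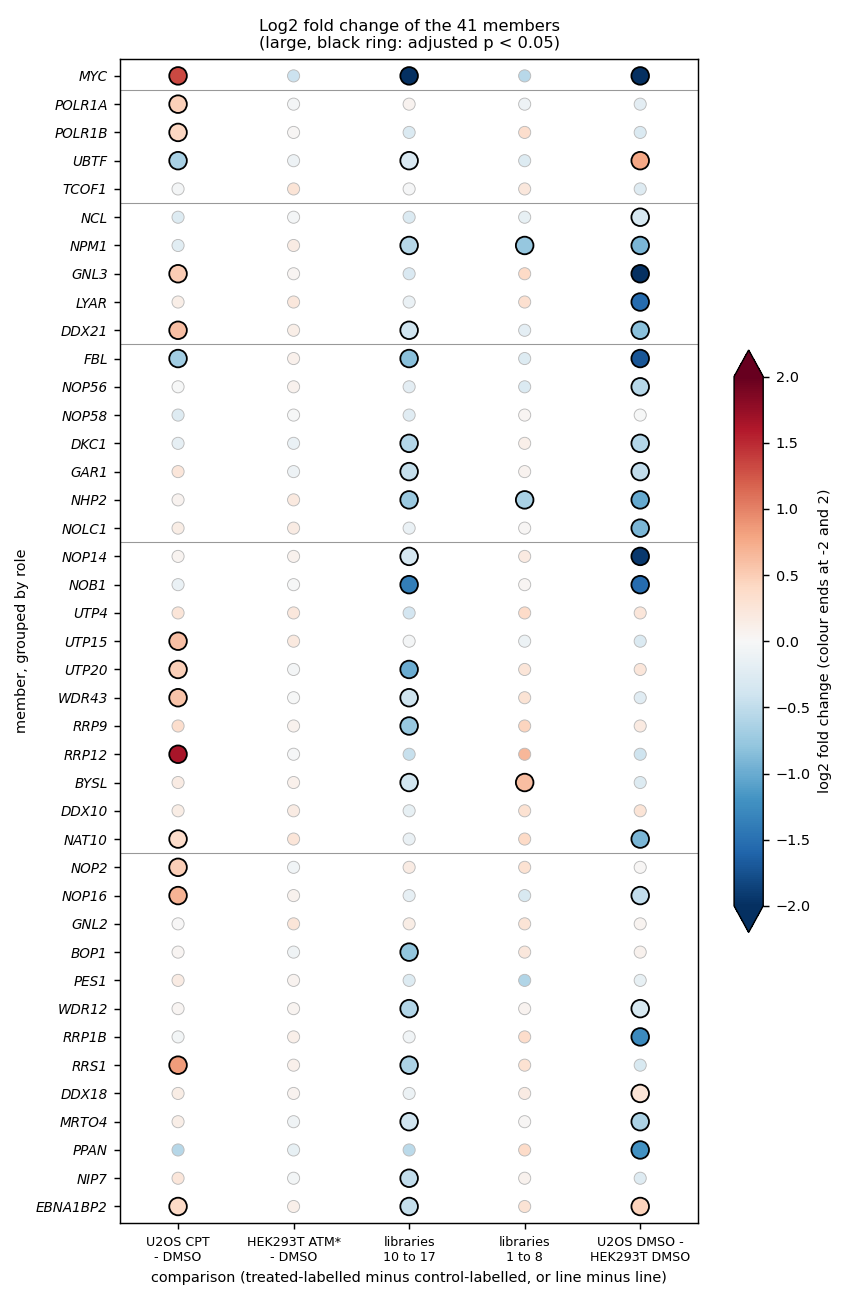
Log2 fold change of each of the 41 genes (rows, in blocks by role) in 5 comparisons (columns), as colour from -2 to 2 with values beyond at the end colours. Large points with a black ring passed an adjusted p under 0.05, and these are 16 genes for U2OS CPT, 0 for HEK293T labelled ATM KO, 20 for libraries 10 to 17, 3 for libraries 1 to 8 and 23 between the lines.

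In libraries 10, 12, 14 and 16, 20 of the 41 genes were lower than in libraries 11, 13, 15 and 17 (48.8%) and none was called higher, against 17.3% lower and 17.6% higher of all 19464 genes tested by edgeR. By an unadjusted p under 0.05, 26 of the 41 and 8637 of the 19464 genes differed. DESeq2 called 16 of the 41 lower and none higher, and of all genes 2623 lower and 2944 higher. Of 12861 genes tested with the stricter filter filterByExpr, 2777 were lower and 2785 higher. UBTF, NOP14, WDR43, BYSL and MRTO4 lost their calls with it. The median log2 fold change was -0.37 over the 41, and -0.36 without MYC, against 0.04 over all genes. Past a log2 fold change of -1 were 2 of the 41, MYC and NOB1, and 4.45% of all genes. The call of 13 of the 20 held under each of the 17 other settings that kept the sets apart. Leaving out library 17 and keeping only the controls labelled U2OS wild type are the same fit, counted under both names. The summed level of the 7 U2OS markers was 125 to 231 normalised CPM in the treated-labelled libraries and 57.2 to 68.7 in the controls, against 2740 or more in U2OS DMSO. The part of that difference in the counts of this paragraph was not tested.

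Besides MYC, NOB1 (ENSG00000141101), the nuclease that makes the final cut of the small subunit rRNA, fell furthest, at 52.8, 36.9, 39.2 and 41.2 normalised CPM against 123, 117, 95.5 and 115 in the controls. No library crossed between the groups, and the log2 fold change was -1.39 (SE 0.13, edgeR adjusted p = 3.04e-08). UTP20 was at 22.5, 24.5, 20.3 and 21.8 against 47.6, 39.9, 45.9 and 44.99 (-0.99, SE 0.14, edgeR adjusted p = 5.75e-06), a difference as clear. RRP9, a protein of the U3 snoRNP, was lower by 0.76 on this scale, as were WDR43 by 0.41, BYSL by 0.38 and NOP14 by 0.35, so that 6 of 11 small subunit factors were lower. Of these, the calls of WDR43, BYSL and NOP14 were lost under 5, 11 and 6 settings. RRP12 was not called (-0.46, edgeR adjusted p = 0.0558), but was without library 16 or library 17.

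In the snoRNP group, proteins of both box C/D and box H/ACA particles were lower. FBL was at 301, 336, 323 and 431 against 626, 730, 591 and 567, with no overlap (-0.84, SE 0.11, edgeR adjusted p = 5.14e-06). Among the H/ACA proteins, NHP2 was at 103, 104, 95.02 and 131 against 213, 174, 155 and 195, again apart, with a log2 fold change of -0.75. DKC1 was lower by 0.59 and GAR1 by 0.47, while NOP56, NOP58 and NOLC1 were not called.

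Of the scaffold proteins, NPM1 was at 912, 819, 856 and 780 against 1231, 1550, 1080 and 1225, with no overlap (-0.57, SE 0.12, edgeR adjusted p = 0.000572). DDX21 was lower by 0.40. NCL, at 1504, 1424, 1574 and 2022 against 2094, 2605, 1694 and 1619, overlapped and was not called (-0.28, 95% interval -0.54 to -0.02). In the transcription group UBTF was lower by 0.31, a call lost under 9 settings, and POLR1A, POLR1B and TCOF1 were not called. Of the 13 large subunit factors 6 were lower. BOP1 was at 19.1, 23.4, 22.9 and 28.4 against 42.2, 48.5, 35.3 and 39.1 (-0.79, SE 0.14, edgeR adjusted p = 0.000157), with no overlap, and its partner WDR12 was lower by 0.58, whereas PES1 was not called (-0.27). RRS1, NIP7, EBNA1BP2 and MRTO4 were lower by 0.63, 0.50, 0.47 and 0.39. The calls of NIP7, EBNA1BP2 and MRTO4 were lost under 4, 1 and 5 settings. For NIP7 these count the fit without library 17 under both its names. When the libraries were grouped exactly as labelled, with library 1 among the controls in place of library 17, 2 of the 41 were lower, MYC and UTP20.

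**Figure D3:**
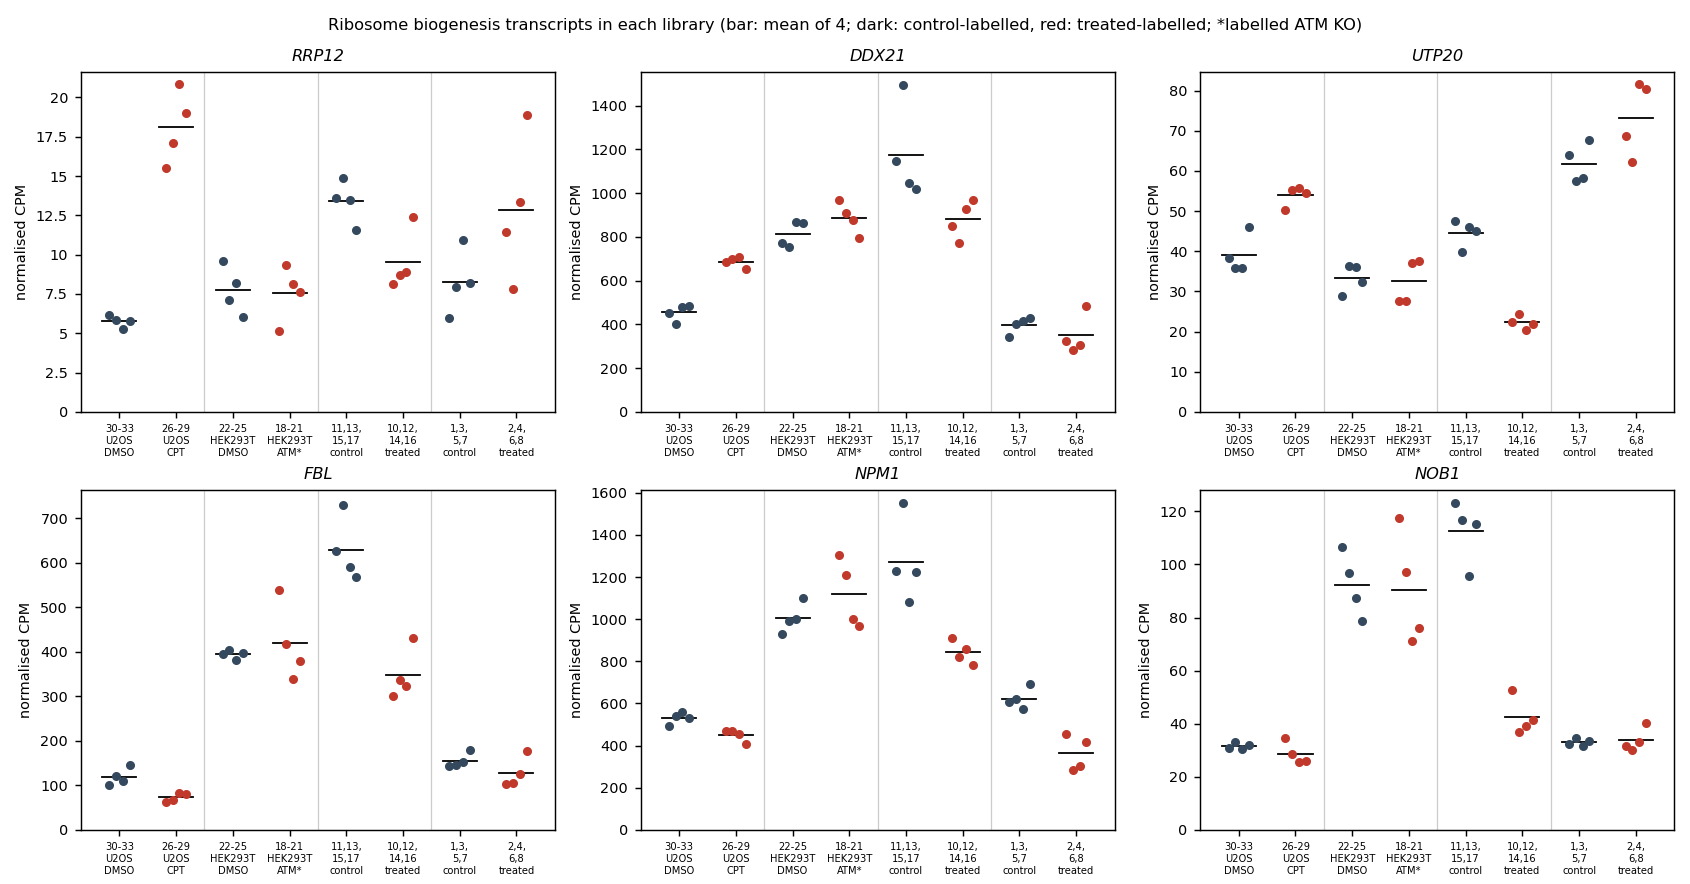
Normalised CPM (axes from 0) of 6 of the genes in each library, grouped as in the plot of the MYC family (points, libraries; bars, means of 4). RRP12, DDX21 and UTP20 were higher after CPT in U2OS, FBL was lower there and in libraries 10, 12, 14 and 16, and NOB1 was called lower in the latter set.

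Because the 2 sets share no library, the difference between the responses was tested directly. In that test 19 of the 41 genes had a higher log2 fold change in U2OS CPT than in libraries 10 to 17 and none a lower one, where 9.9% of all 22363 genes were higher and 10.5% lower by edgeR. By an unadjusted p under 0.05, 26 of the 41 and 6966 of the 22363 genes differed. DESeq2 also called 19 of the 41 higher and none lower, and of all genes 2151 higher and 2258 lower. Of 13927 genes tested with the stricter filter filterByExpr, 2077 were higher and 2477 lower. The median difference was 0.53 over the 41 and -0.06 over all genes. It was largest for MYC (4.60 on the log2 scale, SE 0.35, edgeR adjusted p = 3.82e-14), followed by RRP12 (2.10, SE 0.28), RRS1 (1.48, SE 0.24), UTP20 (1.46, SE 0.19) and NOB1 (1.27, SE 0.20). Of the 19 calls, 15 held under each of 24 other settings, while that of UTP4 was lost under 12, that of UTP15 under 5, and those of WDR12 and NIP7 with scaling by library size alone. MYC, RRS1, UTP20, WDR43, DDX21 and EBNA1BP2 were called in both sets and in opposite directions. Both calls of MYC, RRS1 and DDX21 held under each other setting that kept the sets apart. UTP20 lost its call in U2OS CPT under 1 setting, and WDR43 its call in libraries 10 to 17 under 5. EBNA1BP2 lost its call under 3 settings in U2OS CPT and under 1 in libraries 10 to 17. FBL and UBTF, lower in both sets, were not called in this test. The difference was 0.14 for FBL (95% interval -0.22 to 0.51) and -0.34 for UBTF (-0.67 to -0.01), which was called lower when scaled by library size alone (-0.55, edgeR adjusted p = 0.0146) and with the stricter filter filterByExpr (-0.41, edgeR adjusted p = 0.0372). For NCL the difference was 0.01 (-0.36 to 0.37). Since the U2OS CPT and DMSO libraries serve in this test and in those of U2OS above, these results share them.

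**Figure D4:**
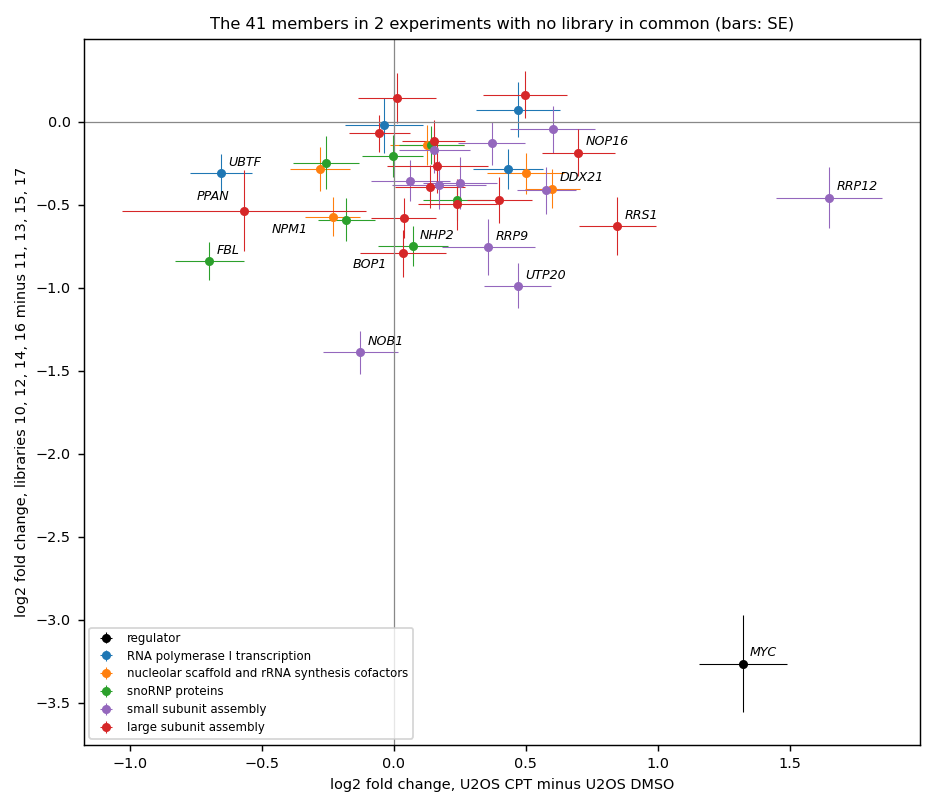
Log2 fold change of the 41 genes after CPT in U2OS cells (horizontal) and in libraries 10, 12, 14 and 16 against 11, 13, 15 and 17 (vertical), with SE bars and colours by role. MYC lies at 1.32 and -3.27, and the genes lower right of the origin, among them RRS1 and UTP20, rose in the former and were lower in the latter.

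In libraries 2, 4, 6 and 8 few of the genes differed from libraries 1, 3, 5 and 7. BYSL was called higher (2.44% of the 41) and NPM1 and NHP2 lower (4.88%), where 6.43% of all 18591 genes were higher and 6.54% lower. NPM1 was at 456, 285, 303 and 415 against 608, 619, 573 and 690.1, with no overlap (-0.78, SE 0.16, edgeR adjusted p = 0.000244), and NHP2 at 22.9, 29.5, 36.4 and 50.9 against 55.4, 57.9, 55.9 and 59.7, also apart (-0.65, SE 0.17, edgeR adjusted p = 0.00602). Both were lower in libraries 10, 12, 14 and 16 too. BYSL, a factor of small subunit assembly also called bystin, was at 27.3, 17.8, 20.2 and 25.6 against 11.1, 12.9, 14.3 and 18.03, with library 4 inside the control range (0.61, SE 0.21, edgeR adjusted p = 0.0376). Its call was lost when any of libraries 1, 2, 3, 5, 6 or 8 was left out and by DESeq2. Library 8 was the highest of its arm for NCL, DDX21, FBL and DDX18, among others, and without it 7 genes were lower (NPM1, NHP2, NCL, DDX21, FBL, NOP56 and PES1). Of all 17930 genes tested without library 8, 1480 were lower. The U2OS CPT response was higher than that of libraries 1 to 8 for 7 of the 41 and lower for none (9.01% and 8.69% of 20539 genes by edgeR). The 7 were MYC by 1.88, NOP16 by 1.03, RRP12 by 0.98, DDX21 by 0.80, UTP15 by 0.72, NHP2 by 0.71 and NPM1 by 0.56. By an unadjusted p under 0.05, 13 of the 41 and 5957 of the 20539 genes differed. DESeq2 also called 7 of the 41 higher and none lower, and 1762 and 1491 of all genes. The calls of MYC, NOP16 and DDX21 held under each of the 24 other settings, and without library 26 or without library 6 there were 4 calls.

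Among the libraries labelled HEK293T ATM KO none of the 41 genes was called against HEK293T DMSO by edgeR or by DESeq2, and 2 had an unadjusted p under 0.05, MYC and NAT10. Of all 18413 genes 0% were called higher and 0.00543% lower, that is 1 gene, and 1017 had an unadjusted p under 0.05. The log2 fold changes of the 40 genes other than MYC lay between -0.17 and 0.27, with the highest for TCOF1 (0.27, SE 0.14). The 95% intervals of NPM1 (-0.05 to 0.38) and FBL (-0.13 to 0.32) lie above the log2 fold changes of these genes in libraries 10 to 17, and that of NCL was -0.26 to 0.18.

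Between the lines in DMSO the genes differed widely, and mostly towards HEK293T. In U2OS DMSO 20 of the 41 were lower than in HEK293T DMSO (48.8%) and 3 higher (7.32%), where 30.1% of all 19739 genes were lower and 32% higher. Of 13096 genes tested with the stricter filter filterByExpr, 4796 were lower and 4705 higher in U2OS. The U2OS DMSO and HEK293T DMSO libraries are those used as controls above. Each line came from its own set of libraries, so line and set cannot be told apart. Mitochondrially encoded transcripts took 20.6 to 26.8% of the counts in U2OS DMSO against 14.4 to 17.4% in HEK293T DMSO. Reads in no annotated gene were 33.6 to 38.7% against 23.6 to 30.4%. The part of these shares in the comparison of the lines was not tested beyond leaving the mitochondrial genes out. MYC was lower by 2.80 (SE 0.16, edgeR adjusted p = 5.45e-17), at 10.2 to 17.6 against 77.05 to 109 normalised CPM. GNL3 followed, at 33.4, 25.8, 31.9 and 27 in U2OS against 108, 132, 130.2 and 142 in HEK293T (-2.10, SE 0.13, edgeR adjusted p = 4.82e-16). NOP14 was at 27.8, 22.4, 28.2 and 35.1 against 104, 102, 116 and 117 (-1.93, SE 0.13, edgeR adjusted p = 5.05e-15), and FBL was lower by 1.72. No library of either line crossed for these 4 genes. LYAR and NOB1 were each lower by 1.54. By role, all 5 scaffold proteins and cofactors and 6 of 7 snoRNP genes were lower in U2OS, but 3 of 11 small and 5 of 13 large subunit factors. UBTF was higher in U2OS by 0.77 (SE 0.11, edgeR adjusted p = 2.33e-07), as were EBNA1BP2 by 0.47 and DDX18 by 0.28. DDX18 lost its call under 7 of the 16 other settings and EBNA1BP2 under 1. Among the genes lower in U2OS, NCL lost its call under 3 settings and WDR12 under 2. Scaled by library size alone, which moved the median of all genes to -0.21, UBTF was the 1 gene that stayed called higher.

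Other genes of the same pathways, taken from lists of their known roles, were counted beside the 41. After CPT in U2OS, 10 of 42 other small subunit factors rose (23.8%) and 2 fell (4.76%, median 0.08), and of 42 other large subunit factors 14 rose (33.3%) and 2 fell (4.76%, median 0.21), against 16.6% and 15.3% of all genes. NOL6 of the processome had the largest rise of the former, at 29.02, 26.5, 30.7 and 27.5 against 13.8, 14.8, 14.5 and 14.7 (0.98, edgeR adjusted p = 6.94e-06). ZNF622, URB1 and SBDS, all of the large subunit, rose by 0.99, 0.84 and 0.82. In libraries 10 to 17, 17 of 43 small subunit factors were lower (39.5%) and 2 higher (4.65%, median -0.22), and of 42 large subunit factors 18 were lower (42.9%) and 4 higher (9.52%, median -0.26), against 17.3% and 17.6% of all genes. WDR18, NLE1 and RSL24D1 led the latter, lower by 1.26, 1.22 and 1.14. Of 17 other RNA polymerase I genes 5 were lower (29.4%) and 3 higher (17.6%) there, with POLR1H lower by 1.27, and 3 rose (17.6%) and 1 fell (5.88%) after CPT in U2OS.

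Of 26 targets of MYC outside the ribosome, 17 were lower (65.4%) and 1 higher (3.85%) in libraries 10 to 17 (median -0.46), where 17.3% of all genes were lower and 17.6% higher. The amino acid transporter SLC7A5 was at 31.5, 27.4, 26.3 and 25.7 against 106, 164, 125 and 92.8 in the controls (-2.13, edgeR adjusted p = 7.72e-10), EIF4EBP1, a repressor of cap-dependent translation, was lower by 2.13 too, and IMPDH2 of guanine nucleotide synthesis by 1.92. In U2OS CPT, where MYC rose, 4 of 25 such genes rose (16%) and 5 fell (20%, median -0.06), shares near the 16.6% and 15.3% of all genes. The D-type cyclin CCND2 rose by 1.62 and CTPS1 of cytidine nucleotide synthesis by 1.52, while PTMA fell by 1.31. Of 10 DNA damage response genes that p53 can raise, such as CDKN1A and GDF15, 10 rose in U2OS CPT (median 1.68, against 16.6% of all genes). In libraries 10 to 17, 7 of the 10 were higher (median 0.99, against 17.6% of all genes). In libraries 1 to 8, 4 of the 10 were higher (6.43% of all genes), and none was called in the libraries labelled HEK293T ATM KO. Activity of p53 itself was not tested. Promoter windows of the other lists held the E-box for 15 of 38 small subunit genes, 8 of 38 large subunit genes, 1 of 15 polymerase I genes and 15 of 23 MYC targets outside the ribosome.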

How the data were processed

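The authors deposited read counts per gene for 32 libraries, without normalization, made per the study's methods with the Lexogen QuantSeq FWD UMI pipeline (aligner, build and annotation are not given in the sources used here). 5 summary rows and 92 spike-in rows were left out, and 0 columns were unused. Symbols were matched for 40995 of 60107 identifiers. Groups were taken from the labels. The study describes the repeats as independent. Counts were fitted with edgeR 4.0.16 in R 4.3.3 (TMM scaling, the quasi-likelihood test, and Benjamini-Hochberg adjustment over all genes tested, namely those whose count exceeded 1 in 2 or more of the fitted libraries), with each treated arm fitted against its own controls, called at an adjusted p under 0.05. The study's test was the likelihood ratio test with an absolute log2 fold change over 1, kept as an alternative beside DESeq2 1.42.0, other scalings and filters, all libraries in 1 fit and each library left out in turn. Leaving out mitochondrially encoded genes was chosen after seeing the data. SEs were derived from the fold change and its F statistic, and 95% intervals assume a normal error. Floors of 3 counts cover counting error only.

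The genes and lists were chosen with earlier results of these data known. Named were MYC, NCL, NPM1, FBL, DKC1, POLR1B, UBTF, TCOF1, BOP1, GNL3, BYSL, NAT10 and ATM, in each comparison the 5 highest and 5 lowest fold changes among those called, and up to 3 genes of each other list. Values of other members were added after they were seen. In GENCODE 29, the last 1000 bases of 4 genes (NOP2, BOP1, RRS1 and PPAN) overlap another gene on the same strand, those of 5 (GNL3, NHP2, NOP14, NOB1 and GNL2) one on the opposite strand. Whether counting used strand is not given, so their counts are less certain.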

Additional observations from a re-analysis of the deposited data

Results flagged for a closer look

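The response of the following genes differed between sets of libraries in the test of the difference itself. Against libraries 10 to 17, the U2OS CPT response was higher on the log2 scale for MYC by 4.60, RRP12 by 2.10, RRS1 by 1.48, UTP20 by 1.46, NOB1 by 1.27, RRP9 by 1.11, DDX21 by 1.01, WDR43 by 0.99, NOP16 by 0.90, EBNA1BP2 by 0.87, BOP1 by 0.83, NHP2 by 0.82, GNL3 by 0.82, NIP7 by 0.74, POLR1B by 0.72, GAR1 by 0.72, UTP15 by 0.66, WDR12 by 0.62 and UTP4 by 0.62. Against libraries 1 to 8 it was higher for MYC by 1.88, NOP16 by 1.03, RRP12 by 0.98, DDX21 by 0.80, UTP15 by 0.72, NHP2 by 0.71 and NPM1 by 0.56. The labels of these sets are contradicted by their profiles, so these differences are between sets and not between named treatments.

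A library far from the other 3 of its group was found in 8 of 224 groups of 4 tested over 28 genes, where chance flags about 1 in 20. In normalised CPM, BYSL was at 20.3 in library 22 (the others at 16.8) and at 12.6 in library 33 (14.8 to 15.2). GNL3 was at 227 in library 13 (161 to 172), LYAR at 26.5 in library 31 (33.1 to 33.6) and NOP16 at 52.8 in library 15 (61.7 to 62.8). RRP12 was at 12.4 in library 16 (8.15 to 8.87), RRS1 at 23.6 in library 23 (29.6 to 30.4) and UTP15 at 24.6 in library 26 (22 to 22.2).

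Reads in no annotated gene, which no comparison used, took a mean of 17.2% in libraries 10, 12, 14 and 16, above the 9.39 to 11% of libraries 11, 13, 15 and 17.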

How the results depend on the processing

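No paired analysis was possible because the labels give each library a number of its own, so no groups share replicate numbers. Over the named genes, 120 results had 2309 values under other settings, of which 2140 kept their side of the threshold, 126 lost a call and 43 gained one. Among values with a call in either fit, 0 turned direction. Direction was not compared where neither fit made a call. Settings that kept only the controls of 1 label repeat the fit without library 17 or without library 1, and they are counted again. Counts of the 41 genes that moved by over 1.5 times were these, and the cause was not tested. With the added cutoff of a log2 fold change over 1, U2OS CPT had 2 higher and 0 lower, libraries 10 to 17 had 2 lower, libraries 1 to 8 had 0 and 0, the lines had 0 higher and 9 lower in U2OS, and the differences had 7 and 2 higher. Of all genes, 3569 of 19739 were lower in U2OS past this cutoff, and 1152 of 22363 and 1147 of 20539 were higher in the differences. Scaled by library size only, U2OS CPT had 7 higher and 6 lower, the lines 1 higher, the difference from libraries 10 to 17 had 1 lower (UBTF, also 1 with filterByExpr), and that from libraries 1 to 8 had 3 higher and 3 lower (median of all genes -0.25 and -0.24). Grouped exactly as labelled, libraries 10, 12, 14 and 16 had 2 lower. Libraries 2, 4, 6 and 8 had 5 lower against all 8 libraries labelled HEK293T DMSO (3, 5, 7, 17 and 22 to 25). Of these controls, 17 and 22 to 25 had the HEK293T profile, whereas libraries 2, 4, 6 and 8 had that of U2OS. Cell line and arm cannot be told apart in that fit. BYSL in libraries 1 to 8 was the 1 gene called higher, and the count was 0 with no filter, with DESeq2 and with the controls labelled HEK293T DMSO alone, and 3 with all 32 libraries in 1 fit. Without mitochondrially encoded genes, U2OS CPT had 14 higher and 3 lower and libraries 10 to 17 had 20 lower. With 1 library left out, the counts ran from 12 to 15 higher and 2 to 4 lower in U2OS CPT, 0 to 1 lower in HEK293T labelled ATM KO, 15 to 23 lower in libraries 10 to 17, 0 to 2 higher and 2 to 7 lower in libraries 1 to 8, 2 to 4 higher and 19 to 23 lower between the lines, and 17 to 23 and 4 to 9 higher in the differences. Depth limits PPAN, at 0.7 to 5.3 normalised CPM in libraries with the U2OS profile, near 3 counts.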
